A study of Daphnia magna with 12 samples.

Results

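The probes described here are those whose transcript level was at least 2-fold above the blank in water fleas (Daphnia magna) exposed to copper chloride (CuCl2) and less than 2-fold above it in animals exposed to copper oxide (CuO) nanoparticles. A probe was taken when its mean log2 ratio over the 4 CuCl2 arrays exceeded that over the 4 blank arrays by at least 1 while the mean over the 4 CuO arrays exceeded it by less than 1. This rule gave 112 of the 4247 Daphnia probes analysed (2.64%). They make up 33.2% of the 337 probes that were at least 2-fold above the blank with CuCl2, and the other 225 of those reached the same limit with CuO as well. The rule used the measured group means, so the differences between the groups in these probes are a description of the choice and carry no test.

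Copper is an essential metal that serves as a cofactor of oxidases and of electron transport, and in excess it binds thiols and drives the formation of reactive oxygen species. Dissolved salts such as CuCl2 give animals free copper ions at once, whereas CuO nanoparticles can be taken up as particles and release ions as they dissolve. In crustaceans, metallothioneins and antioxidant enzymes are among the known protein products of the response to copper. The deposited table names its features only by probe identifiers, and 0 of the 112 identifiers occurred in the RefSeq gene table of the species, so neither a gene name nor a function nor a probe sequence can be given for them.

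Each array compared 1 pool of 40 whole animals with a common reference on a 2-colour array. The groups were 4 pools exposed to CuCl2, 4 pools exposed to CuO nanoparticles and 4 unexposed pools, called blank, each group being a set of replicate exposures of 96 hours in the same ISO medium with algae as food, renewed after 48 hours. The dose of each copper form was its EC10 for immobilization, per the labels, the animals were 96 hours old when sampled, and the reference was an equal mixture of the 3 groups. In every group replicates 1 and 2 carried the dye cy3 and replicates 3 and 4 carried cy5, with the reference in the other dye. Because RNA came from whole animals, a change in the amount of a tissue and a change in RNA per cell cannot be told apart in any value below.

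A value is the deposited log ratio of a pool to the reference, read as log2, with sample over reference as its likely direction. The direction rests on the reference being a mixture of the groups. For the 92 probes with the widest group means the log2 of the averaged linear ratios had a median of -0.08 as deposited and 0.88 with the sign turned, and for the 112 probes it was -0.07 as deposited and 0.25 turned. If the sign of the whole table were turned, the 112 probes would be lower with CuCl2 by the same amounts. Arrays of the same dye orientation correlated down to -0.55 (CuCl2 replicate 4 and blank replicate 3), array medians lay between -0.06 and 0.04, and all 15 control probes had opposite signs in the 2 orientations. CuCl2 replicate 4 stood apart from its group in spread: the SD of its values over all probes was 0.711, against 0.386 to 0.434 in the other CuCl2 pools, 0.357 to 0.439 in the CuO pools and 0.533 to 0.654 in the blank pools.

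Most of the 112 probes were above the blank with CuO as well, and they met the rule because CuO stopped short of the 2-fold limit that CuCl2 passed. Their median difference was 1.17 (2.24-fold) for CuCl2 minus blank and 0.82 (1.77-fold) for CuO minus blank, beside -0.01 and 0.03 over all 4247 probes. The CuO mean was above the blank mean for 111 of the 112, and for 96 it was at least 1.5-fold above. For 65 probes CuO minus blank lay between 0.8 and 1, for 37 between 0.5 and 0.8, for 9 between 0 and 0.5, and for 1 below 0. On the side of the salt, CuCl2 minus blank was under 1.2 for 63 of the 112. A response to CuCl2 with little or none to CuO was thus the exception among these probes.

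**Figure D1:**
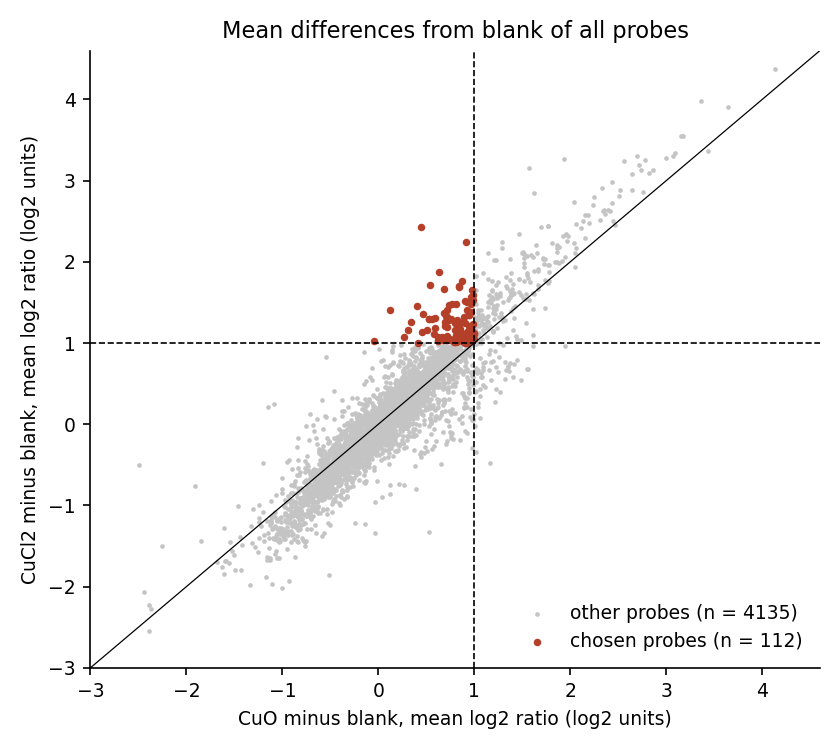
Mean CuCl2 minus blank (vertical axis) against mean CuO minus blank (horizontal axis), both in log2 units, for the 112 chosen probes in red and the other 4135 probes in grey. Dashed lines mark the limit of 1 on each axis, and the solid line marks equal differences. The chosen probes fill the corner where the cloud along the diagonal crosses the 2 limits, with a few probes standing clear of it.

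The difference between the forms, CuCl2 minus CuO, had a median of 0.39 over the 112 probes, beside -0.02 over all probes. It ran from 0.06 to 1.99, with quartiles at 0.22 and 0.61. It was under 0.3 for 46 probes, at least 0.5 for 43 and at least 1 for 7. The standard error of this difference in a single probe had a median of 0.24 over the 112 and 0.16 over all probes. The 95% interval of CuO minus blank reached the limit of 1 in 111 of the 112 probes, and that of CuCl2 minus blank extended below it in 109. Both held for 108 probes, so for these the side of the limits was not resolved by 4 pools a group in this fit. The intervals use 1 estimate of spread per probe for all 3 groups. The 112 probes spread more among the CuCl2 pools than among the CuO and blank pools.

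Counts of calls are given for the groups that the rule compared, and nothing is read from them. In a limma fit of group and dye orientation on all 12 arrays, with Benjamini-Hochberg adjustment over the 4247 probes at 0.05, 99 of the 112 were called higher in CuCl2 than in blank, where 21.1% of all probes were. With CuO, 61 of the 112 were called higher than in blank, where 17.4% of all probes were. Between CuCl2 and CuO limma called 0 of the 112 and 0% of all probes. At an unadjusted p under 0.05, 16 of the 112 and 2.28% of all probes were higher in CuCl2 than in CuO. All 4 CuCl2 pools lay above all 4 blank pools in 70 of the 112 (14.1% of all probes), and all 4 CuO pools lay above all 4 blank pools in 58 (13.6% of all probes). All 4 CuCl2 pools lay above all 4 CuO pools in 4 of the 112, where 0.447% of all probes had that order.

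The pools of the CuCl2 group did not share the difference evenly. Averaged over the 112 probes, the log2 ratio was 0.62, -0.28, 0.22 and 1.06 in CuCl2 replicates 1 to 4. It was 0.20, -0.31, 0.06 and -0.17 in CuO replicates 1 to 4 and -0.77, -0.84, -0.92 and -0.81 in blank replicates 1 to 4. CuCl2 replicate 4 was the highest pool, CuCl2 replicate 1 was next, and CuCl2 replicate 2 lay among the CuO pools, while every copper pool lay above every blank pool. The group means of these averages were 0.41 ± 0.57 for CuCl2, -0.06 ± 0.23 for CuO and -0.83 ± 0.06 for blank (SD, n = 4 each). The spread among the CuCl2 pools was thus larger than the distance between the 2 copper groups.

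Set against the 2 blank pools of the same dye, the median probe stood 1.34, 0.53, 1.12 and 1.78 higher in CuCl2 replicates 1 to 4. The same medians were 1.02, 0.56, 0.93 and 0.77 in CuO replicates 1 to 4. CuCl2 replicate 2 was therefore about level with CuO replicate 2, and both were the lowest copper pools. The number of the 112 probes that were at least 1 above the blank was 93, 12, 69 and 112 in CuCl2 replicates 1 to 4 and 61, 2, 42 and 26 in CuO replicates 1 to 4. Over all probes the share past that limit was 10.1%, 5.89%, 9.54% and 13.9% in the CuCl2 pools and 10.5%, 6.33%, 8.29% and 6.90% in the CuO pools, so that CuCl2 replicate 4 was the highest and CuCl2 replicate 2 the lowest copper pool over the whole table too. In CuCl2 replicate 4 every one of the 112 probes passed the limit, and in CuCl2 replicate 2 few did.

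**Figure D2:**
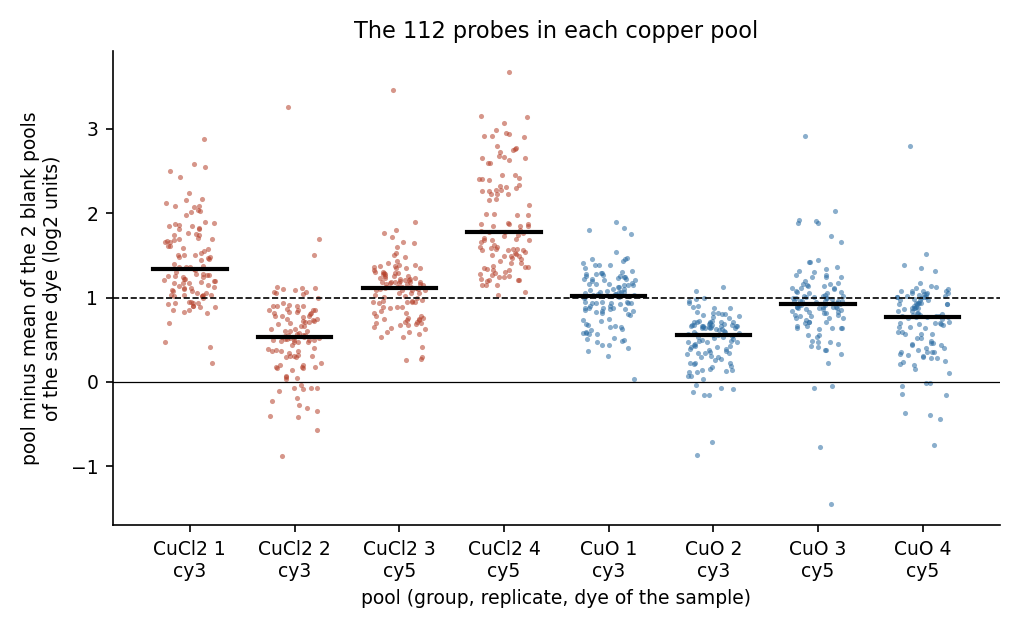
Each point is 1 of the 112 probes in 1 copper pool, plotted as the pool's log2 ratio minus the mean of the 2 blank pools of the same dye (vertical axis, log2 units) for CuCl2 pools in red and CuO pools in blue. Bars are medians, from 0.53 in CuCl2 replicate 2 to 1.78 in CuCl2 replicate 4 and from 0.56 to 1.02 in the CuO pools, and the dashed line marks the limit of 1.

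Against the 2 CuO pools of the same dye the median probe differed by 0.54, -0.22, 0.19 and 0.94 in CuCl2 replicates 1 to 4. The probes that lay above the CuO mean numbered 110, 28, 96 and 112 in these pools. After each dye orientation was centred, replicate 4 was the highest CuCl2 pool for 82 of the 112 probes (73.2%) and replicate 2 was the lowest for 98 (87.5%). Over all probes replicate 4 was highest for 27.7% and replicate 2 lowest for 31.4%. The 112 were chosen on the CuCl2 mean, so their shares reflect the choice as well as the pools. Single probes also spread most among the CuCl2 pools. Their median SD after centring each dye was 0.43 among CuCl2 pools, 0.26 among CuO pools and 0.23 among blank pools. Over the 225 probes at 2-fold or more with both forms it was 0.37, 0.26 and 0.29, and over all probes 0.21, 0.19 and 0.20.

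The probes that stood high over CuO in CuCl2 replicate 1 also stood high in replicate 4. Across the 112 probes the excess over the CuO pools of the same dye correlated between these 2 pools with Pearson's r = 0.69 and Spearman's rho = 0.68. Across the 225 probes at 2-fold or more with both forms these were 0.74 and 0.63, and across all probes 0.60 and 0.51. The 2 excesses share no array, but each is measured from a CuO mean of 2 pools. Between replicates 1 and 3 r was -0.02 (rho = 0.09), between replicates 2 and 3 it was 0.51 (rho = 0.07), and between replicates 2 and 4 it was -0.24 (rho = -0.47), n = 112 probes each. Over all 4247 probes r was 0.27, -0.18 and -0.32 for these 3 pairs. For replicates 1 and 3 r was near 0 among the 112. For replicates 2 and 3 r had the opposite sign among the 112, but rho there was only 0.07. DM07518P2 stood far out in this pair, with 3.07 in CuCl2 replicate 2 and -4.45 in CuO replicate 3. The value of r without this probe was not computed. Genes measured on the same arrays are not independent, and these values describe the pools only.

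Only 4 of the 112 probes had every CuCl2 pool above every CuO pool. DM08407P1 had log2 ratios of 0.46, 0.26, 0.90 and 1.54 in CuCl2 replicates 1 to 4, -0.05, -0.66, -0.79 and -0.33 in the CuO pools and -1.32, -1.55, -1.25 and -0.23 in the blank pools. Its CuCl2 pools formed a group of their own, while blank replicate 4 reached the level of the CuO pools. Its difference was 1.88 for CuCl2 minus blank, 0.63 for CuO minus blank and 1.25 for CuCl2 minus CuO, with an SE of 0.29 each.

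DM12355P1 followed a like order. It had 0.49, 0.34, 0.77 and 1.74 in CuCl2 replicates 1 to 4, 0.11, -0.49, -0.66 and -0.30 in the CuO pools and -0.79, -1.55, -1.01 and -0.16 in the blank pools. Here too CuCl2 replicate 4 was far above the other pools and blank replicate 4 lay among the CuO pools. CuCl2 minus CuO was 1.17 with an SE of 0.32.

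The other 2 probes of this kind had smaller differences and less overlap between CuO and blank in one of them. DM10036P3 had 0.41, 0.02, 0.69 and 0.98 in CuCl2 replicates 1 to 4, -0.04, -0.07, -0.02 and 0.01 in the CuO pools and -0.56, -1.01, -0.60 and -0.76 in the blank pools. Its 3 groups did not overlap, although CuCl2 replicate 2 stood just above the highest CuO pool. CuCl2 minus blank was 1.25, CuO minus blank 0.70 and CuCl2 minus CuO 0.56, with an SE of 0.16 each. DM09835P3 had 0.61, 0.20, 0.24 and 0.99 in the CuCl2 pools, -0.16, 0.05, -0.25 and 0.04 in the CuO pools and -0.21, -0.72, -1.32 and -0.46 in the blank pools. Its CuO and blank pools overlapped through blank replicate 1, and CuCl2 minus CuO was 0.59 with an SE of 0.24.

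**Figure D3:**
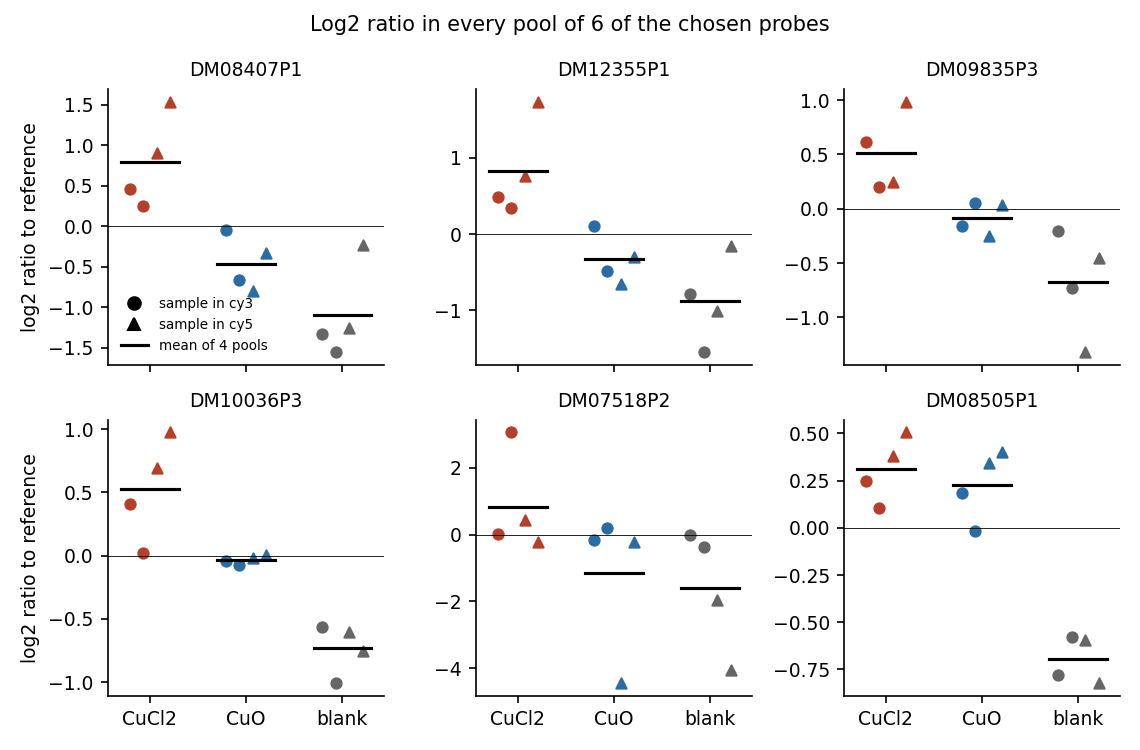
Log2 ratio to the reference (vertical axis, a scale of its own in each panel) in every pool for 6 of the chosen probes, by group (CuCl2 red, CuO blue, blank grey), with circles for cy3 samples, triangles for cy5 samples and lines for the mean of 4 pools. The CuCl2 pools lie clear of the CuO pools in DM08407P1, DM12355P1, DM09835P3 and DM10036P3, while in DM07518P2 single pools reach 3.07 and -4.45 and in DM08505P1 the CuCl2 and CuO pools overlap.

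The largest mean differences came with the largest spread. DM07518P2, with the highest CuCl2 minus blank (2.44) and CuCl2 minus CuO (1.99) of the 112, had 0.03, 3.07, 0.45 and -0.21 in CuCl2 replicates 1 to 4, -0.16, 0.19, -4.45 and -0.21 in the CuO pools and -0.02, -0.37, -1.94 and -4.07 in the blank pools. Its differences rest on CuCl2 replicate 2 at the top and on CuO replicate 3 and blank replicates 3 and 4 at the bottom, and the SE was 0.88. Without CuO replicate 3 its CuCl2 minus CuO fell to 1.17, and without blank replicate 4 its CuCl2 minus blank was 1.92.

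DM01549P2 was next, with CuCl2 minus blank at 2.24 and an SE of 0.78. It had 0.80, -0.88, -0.20 and 1.67 in the CuCl2 pools, -0.54, -2.65, 0.92 and -1.65 in the CuO pools and -2.48, -1.08, -3.13 and -0.87 in the blank pools. The CuO pools overlapped both other groups, while CuCl2 overlapped the blank through CuCl2 replicate 2 alone, level with blank replicate 4. CuO minus blank was 0.91. Without CuO replicate 2 its CuCl2 minus CuO was 0.81, and with all pools it was 1.33.

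CuO stood level with the blank in few probes, and in these too the CuCl2 pools differed among themselves. DM04277P1, the only probe of the 112 with a CuO mean below the blank mean (-0.04), had 1.36, -0.35, -0.69 and 1.35 in the CuCl2 pools, 0.22, -0.41, -1.73 and -0.67 in the CuO pools and 0.18, -0.69, -0.61 and -1.32 in the blank pools. CuCl2 replicates 1 and 4 were high and replicates 2 and 3 lay within the range of the other groups. DM11588P2 had 1.66, 0.96, -0.37 and 1.49 in the CuCl2 pools, 0.86, -0.28, -0.45 and -1.53 in the CuO pools and -0.13, -0.17, -0.52 and -1.06 in the blank pools. Its CuO minus blank was 0.12 and its CuCl2 minus CuO 1.28 with an SE of 0.41, with CuCl2 replicate 3 as low as the other groups.

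DM04450P3 had 1.08, -0.25, 0.21 and 1.42 in the CuCl2 pools, -0.04, -0.50, -0.09 and -0.17 in the CuO pools and -0.60, -0.62, -0.20 and -0.43 in the blank pools. Its CuO minus blank was 0.27 and its CuCl2 minus CuO 0.81. DM02489P2, whose CuO minus blank was 0.31, had 1.31, -1.26, -0.02 and 1.44 in the CuCl2 pools, 0.06, -1.09, 0.67 and -1.59 in the CuO pools and -0.58, -0.18, -1.98 and -0.45 in the blank pools. In both probes CuCl2 replicates 1 and 4 were the highest of all pools, and in DM02489P2 CuCl2 replicate 2 lay below 3 of the blank pools.

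In 3 other probes with large differences CuCl2 replicates 1 and 4 were again above replicates 2 and 3. DM04058P1 had 0.76, -0.60, 0.69 and 2.45 in the CuCl2 pools, 0.03, -0.63, -0.08 and -0.21 in the CuO pools and -0.76, -0.78, -0.52 and -0.47 in the blank pools. DM03373P4 had 1.39, -0.70, -0.11 and 2.29 in the CuCl2 pools, -0.01, -0.78, 0.21 and -0.51 in the CuO pools and -1.005, -1.07, -0.91 and -0.83 in the blank pools. In both, replicate 4 was highest and replicate 2 was within the range of the CuO pools. DM12533P2 had 1.87, -0.84, 0.04 and 1.56 in the CuCl2 pools, 0.37, -0.78, -0.21 and -0.33 in the CuO pools and -1.15, -0.88, -1.23 and -1.19 in the blank pools, with CuCl2 replicate 1 as its highest pool and replicate 2 below all CuO pools. CuCl2 minus CuO was 1.05, 0.99 and 0.90 in these 3 probes. Without CuCl2 replicate 4 it was 0.56 in DM04058P1 and 0.47 in DM03373P4, and without CuCl2 replicate 1 it was 0.44 in DM12533P2.

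The 4 probes with the largest spread among CuCl2 pools did not all share one order of pools. DM08387P3, DM06519P1, DM07518P2 and DM10519P1 had an SD of 1.33 to 1.48 among CuCl2 pools after centring each dye. CuCl2 replicate 2 was the lowest CuCl2 pool in 3 of them and the highest in DM07518P2. DM08387P3 ran from -1.63 in CuCl2 replicate 2 to 1.80 in replicate 4, against -0.92 to 0.05 in the CuO pools and -1.27 to -0.76 in the blank pools. Its CuCl2 pools thus spanned more than the whole range of the other groups. DM06519P1 ran from -1.45 in CuCl2 replicate 2 to 1.27 in replicate 4, against -1.11 to 0.30 in the CuO pools and -1.69 to -0.86 in the blank pools. Without CuCl2 replicate 4 the CuCl2 minus CuO of DM10519P1 was -0.09, and with all pools it was 0.49.

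At the other end stood probes whose pools agreed closely and whose copper groups lay together. DM09736P1 had 0.12, 0.22, 0.26 and 0.30 in the CuCl2 pools, 0.06, -0.35, 0.19 and 0.16 in the CuO pools and -0.85, -0.79, -0.90 and -0.95 in the blank pools. DM08505P1 had 0.25, 0.10, 0.38 and 0.50 in the CuCl2 pools, 0.18, -0.02, 0.34 and 0.40 in the CuO pools and -0.78, -0.58, -0.60 and -0.82 in the blank pools. In both probes all copper pools lay clear of all blank pools and the 2 copper groups overlapped. Their CuCl2 minus CuO was 0.21 (SE 0.12) and 0.08 (SE 0.12). DM04610P2 and DM15325P1 also had little spread among CuCl2 pools, with CuCl2 minus CuO at 0.14 and 0.20 and CuO minus blank at 0.93 and 0.81.

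Probes at the edges of the rule differed little across them. Just inside the CuCl2 limit stood DM08448P1 and DM08505P1, both with CuCl2 minus blank at 1.00, and just outside stood DM04223P2 at 0.996 and DM07452P1 at 0.994. Just inside the CuO limit stood DM08238P1 and DM07693P1, both with CuO minus blank at 0.998, and just outside stood DM04102P1 and DM12531P2, both at 1.00. DM07693P1 had 0.38, -0.16, 0.37 and 0.65 in the CuCl2 pools, 0.06, 0.17, 0.56 and 0.22 in the CuO pools and -0.66, -0.61, -0.74 and -0.97 in the blank pools. Its CuCl2 minus CuO was 0.06 with a 95% interval of -0.32 to 0.43, and the 2 copper groups overlapped. Next to the CuO limit came DM02674P1 and DM02492P2, with CuO minus blank at 0.99 each and CuCl2 minus CuO at 0.11 and 0.61.

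Choosing probes on a difference and measuring it on the same arrays can make it larger. The rule was therefore applied to some arrays, and the probes it gave were described on the others. A fall between the used and the left-out arrays holds this bias together with the level of the pools left out. The replicate number served only to leave out 1 array of each group with the same dye. With replicate 1 left out the rule gave 120 probes, whose median CuCl2 minus CuO was 0.40 in the 9 arrays used and 0.23 in the 3 left out. With replicate 2 left out it gave 164 probes, with 0.51 in the arrays used and -0.06 in those left out. With replicate 3 left out it gave 130 probes, with 0.44 and 0.04. In these 3 choices the difference between the forms shrank or vanished in arrays that had no part in the choice. It also fell in the probes that the same arrays placed at 2-fold or more with both forms. There it went from 0.28 to 0.12 for replicate 1, 0.31 to -0.03 for replicate 2 and 0.24 to 0.14 for replicate 3. How much of each fall came from the choice was not tested.

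With replicate 4 left out the order was the other way round. The rule then gave 56 probes, whose median CuCl2 minus CuO was 0.26 in the arrays used and 0.55 in replicate 4. The mean over the 4 choices was 0.40 in the arrays used and 0.19 in those left out, and 0.07 in those left out when the choice without replicate 4 is not counted. In replicate 4 the 213 probes that the same 9 arrays placed at 2-fold or more with both forms had a median CuCl2 minus CuO of 0.72, against 0.08 in the arrays used. The excess of CuCl2 over CuO in replicate 4 was thus no smaller in probes that stood high with both forms.

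**Figure D4:**
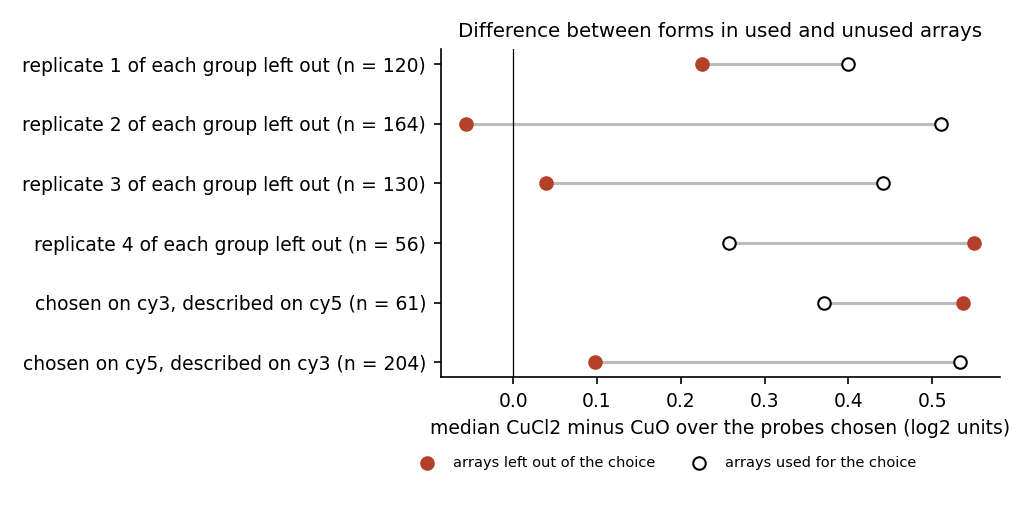
Median CuCl2 minus CuO (horizontal axis, log2 units) of the probes chosen by the rule on some of the arrays, in the arrays left out of the choice (filled) and in those used for it (open), for 6 choices with the number of probes given. Left out, it ranges from -0.06 (replicate 2) to 0.55 (replicate 4), and it lies below the value in the used arrays in all but the choices that leave out replicate 4 or describe the cy5 arrays.

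Membership itself was met again by a minority. In the arrays left out, the rule was met by 21.7% of the probes chosen without replicate 1, 3.66% of those without replicate 2, 14.6% without replicate 3 and 48.2% without replicate 4. Of all probes, 2.94%, 1.39%, 2.75% and 8.01% met it in the same arrays, and in replicate 4 so did 23.5% of the probes chosen at 2-fold or more with both forms. CuCl2 minus CuO was above 0 in 73.3%, 39.6%, 53.8% and 89.3% of the same probes, beside 48.8%, 50.6%, 49.1% and 44.9% of all probes in the same arrays.

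The dye orientations split the difference in the same way. Over the 112 probes the median CuCl2 minus blank was 1.42 in the cy5 arrays and 0.96 in the cy3 arrays, and that of CuO minus blank was 0.84 in the cy5 arrays and 0.75 in the cy3 arrays. CuCl2 minus CuO had a median of 0.57 in the cy5 arrays (above 0 for 111 of the 112) and 0.17 in the cy3 arrays (above 0 for 91). The rule was met on the cy5 arrays alone by 82 of the 112 and on the cy3 arrays alone by 39. The 204 probes that the rule gave on the cy5 arrays had a median CuCl2 minus CuO of 0.53 there and 0.10 in the cy3 arrays. The 61 that it gave on the cy3 arrays had 0.54 in the cy5 arrays and 0.37 in the cy3 arrays that chose them.

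The change of CuCl2 minus CuO between the dye orientations does not enter the rule directly, and it was tested. It is free of the choice only when arrays have equal spread. CuCl2 replicate 4, a cy5 pool, had an SD of 0.711 over all probes, the widest of the CuCl2 pools. The choice can therefore itself raise this change in the 112. The median change over the 112 probes was 0.41 (cy5 minus cy3), beside 0.41 over the 225 probes at 2-fold or more with both forms and -0.005 over all probes. The limma interaction term, with 6 residual degrees of freedom, called 0 of the 112 at an adjusted p of 0.05, with 0.978 as the smallest adjusted p, where 0.0235% of all probes were called. At an unadjusted p under 0.05 it took 2 of the 112, where 3.84% of all probes passed. Dye cannot be told apart from the pools that carried it, since each orientation holds 2 CuCl2 pools and the cy5 side holds replicate 4.

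Leaving out single arrays changed the list. Without CuCl2 replicate 4 the rule gave 60 probes, of which 49 were among the 112, and without CuCl2 replicate 2 it gave 221, of which 111 were. Without CuCl2 replicate 1 it gave 107 (88 shared) and without CuCl2 replicate 3 it gave 124 (98 shared). Leaving out a CuO pool gave 80 to 134 probes with 77 to 108 shared, and leaving out a blank pool gave 108 to 124 with 79 to 86 shared. The lists without CuCl2 replicate 2 and without CuCl2 replicate 4 thus stood farthest from the 112 in number. The scale of the table mattered as well: the rule gave 78 probes after quantile normalization between arrays, of which 28 were among the 112, and 98 after scaling every array to one median absolute deviation, of which 59 were. Read as natural logs, the same table gave 176 probes at limits of 2-fold, of which 26 were among the 112.

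The median CuCl2 minus CuO of the 112 moved with the same 2 pools. It was 0.19 without CuCl2 replicate 4 and 0.61 without CuCl2 replicate 2, and it lay between 0.28 and 0.45 without any other single copper pool. Without CuCl2 replicate 4, 76 of the 112 were called higher in CuCl2 than in blank, where 16.9% of all probes were, and without CuCl2 replicate 2, 111 were, where 23.4% of all probes were. The same count was 76 without CuCl2 replicate 1, where 16.6% of all probes were called. The shares of members and of all probes thus moved in the same direction.

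**Figure D5:**
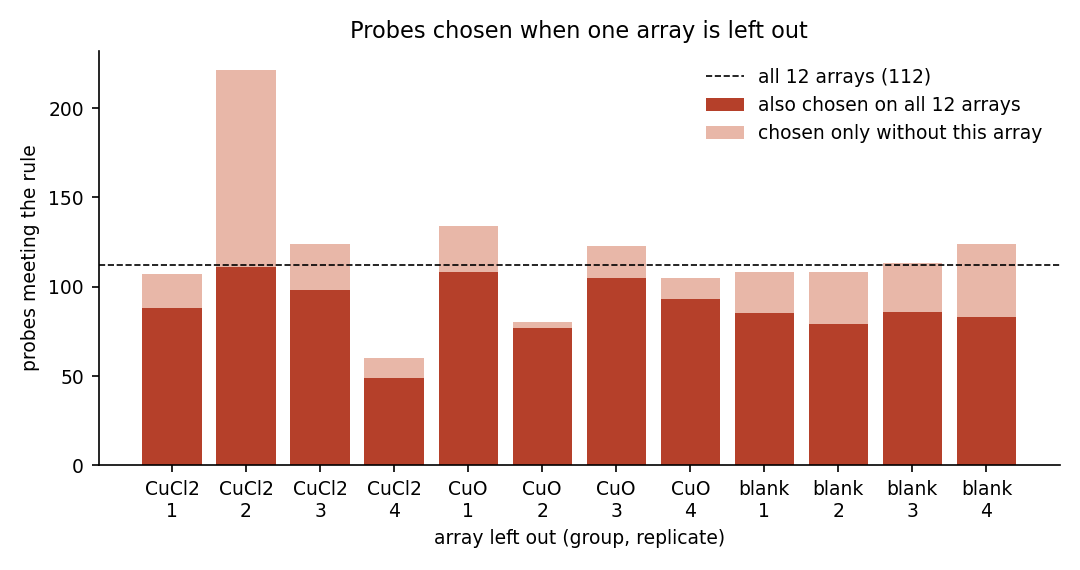
Number of probes meeting the rule (vertical axis) when the array named on the horizontal axis is left out, split into probes also among the 112 chosen on all 12 arrays (dark) and others (light), with the dashed line at 112. The bar without CuCl2 replicate 2 reaches 221 and the bar without CuCl2 replicate 4 stops at 60.

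Of the 112 probes, 13 met the rule without every one of the 12 arrays in turn, 27 without 11 of them and 72 without 10 or fewer. The 13 were DM00681P4, DM01609P3, DM03211P1, DM03373P4, DM03878P1, DM04283P1, DM08407P1, DM08953P3, DM09683P3, DM10036P3, DM11588P2, DM12355P1 and DM12448P2. They were picked by this outcome, so their values are a description. Their CuCl2 minus blank ran from 1.17 to 1.88 and their CuCl2 minus CuO from 0.32 to 1.28 with a median of 0.69. In 6 of the 13 CuO too was called higher than blank, where 61 of the 112 and 17.4% of all probes were. CuCl2 replicate 2 lay above the mean of the CuO pools of its dye in 4 of the 13. The same held for 28 of the 112 and for 2111 of all 4247 probes.

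Among the 13, DM01609P3 had 0.90, -0.04, 0.75 and 0.95 in the CuCl2 pools, 0.17, -0.23, -0.04 and -0.11 in the CuO pools and -1.12, -0.78, -0.49 and -0.70 in the blank pools. DM03211P1 had 0.42, 0.04, 0.50 and 0.47 in the CuCl2 pools, 0.23, -0.12, -0.41 and -0.34 in the CuO pools and -0.66, -0.89, -1.26 and -0.62 in the blank pools. In both probes 3 CuCl2 pools were alike and above every CuO pool, CuCl2 replicate 2 lay within the CuO range, and all copper pools were above the blank pools. DM08953P3 had 1.48, -0.52, -0.32 and 1.85 in the CuCl2 pools, 0.44, -0.22, -0.50 and -0.68 in the CuO pools and -1.09, -0.94, -1.06 and -1.22 in the blank pools, so that CuCl2 replicates 1 and 4 alone stood above CuO.

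The 225 probes at 2-fold or more with both forms had the same order of pools. Their medians over the blanks of the same dye were 1.81, 1.15, 1.74 and 2.27 in CuCl2 replicates 1 to 4 and 1.69, 1.24, 1.53 and 1.45 in CuO replicates 1 to 4. CuCl2 replicate 4 was the highest CuCl2 pool in 74.7% of them and replicate 2 the lowest in 83.1%, close to the shares among the 112. Their median CuCl2 minus CuO was 0.25 (0.41 in the cy5 arrays and 0.04 in the cy3 arrays), and it was above 0 in 196 of the 225. The mirror rule, at least 2-fold with CuO and less with CuCl2, gave 57 probes, and leaving out single arrays gave 39 to 91. In these 57 CuCl2 replicate 4 was the lowest CuCl2 pool in 59.6% and the highest in 8.77%. Their medians over the blanks of the same dye were 0.81, 0.88, 0.92 and 0.07 in CuCl2 replicates 1 to 4. All 3 lists were chosen on the CuCl2 mean, so the order of the pools in them is a description.

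Beside the group differences, 2 features that the rule did not use directly are given with their shares among all probes. The difference of the shares was not tested. A balanced design keeps the dye term apart from the group means when arrays have equal spread. The dye term was called for 22 of the 112 at an adjusted p of 0.05 by limma, where 32.7% of all probes were called. Without blank replicate 4 it was called for 14, where 28.8% of all probes were called. It was positive, higher in cy5, for 79 of the 112 (70.5%), for 72.9% of the 225 and for 45.7% of all probes. Among the 57 probes of the mirror rule it was positive for 33.3%. CuCl2 replicate 4 is a cy5 pool with a wider spread than the other CuCl2 pools, so the choice can move these shares. The dye term was largest in size in DM07518P2 (-2.20), DM05804P1 (1.54), DM11234P2 (1.02) and DM11588P2 (-0.89). In DM05804P1 every cy5 pool lay above both cy3 pools of its group.

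The other feature was the ending of the probe identifier, whose meaning is not given in the sources used here. The ending P1 was found in 60 of the 112 (53.6%), in 38.2% of the 225 and in 42.1% of all probes. P2 was found in 25, P3 in 22 and P4 in 5 of the 112. No 2 probes of the table shared the rest of their identifier, so no probe of the 112 had a partner on the same stem to compare it with.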

How the data were processed

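The values were deposited by the authors as 1 table of log ratios, 1 column per 2-colour array, and were read as log2, since limma, the tool in the submitters' processing notes (no version there), works on that scale. Total RNA (100 ng per pool) was labelled by a 2-colour Agilent protocol with swapped dyes, per the labels' protocols. How background and normalization were handled, how rows were chosen and which genes and sequences the probes stand for is not given in the sources used here. The 15 control rows of the 4262 were set aside, and 4247 probes were analysed as deposited, with no filter. The table holds no intensities, so depth is unknown and the number of arrays limits the precision.

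Members were chosen by the rule from plain group means. Calls came from limma 3.58.1 in R 4.3.3 with group and dye orientation on 12 arrays (8 residual degrees of freedom). The p-values measure the spread between these replicate exposures. The smallest root mean square difference between replicates was 0.421, so none was a copy of another. The members, the lists and the tests were chosen with earlier results of these data known.

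Named probes were those with the 8 largest CuCl2 minus CuO differences, the 4 largest and 4 smallest CuO minus blank, the 4 largest CuCl2 minus blank, up to 6 with all CuCl2 above all CuO pools, the 4 largest and 4 smallest spreads among CuCl2 pools, 2 on either side of each limit and the 4 largest dye terms. DM01609P3, DM03211P1 and DM08953P3 and the 13 listed probes were named after their values were seen. The fit was tested on simulated data. Alternatives were the array scaling, the terms and weights of the fit, the limits of the rule and leaving out each array.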

Additional observations from a re-analysis of the deposited data

Results flagged for a closer look

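Among 96 sets of 4 pools (the 31 named probes and the averages over the 112 in each group, after centring each dye), 5 held a pool whose gap to its neighbour as a share of the range was above Dixon's 95% critical value, about as many as chance gives at 1 in 20. In DM12355P1 CuCl2 replicate 4 was high (1.67, with 0.65 to 0.81 in the other CuCl2 pools, a gap of 0.8499 of the range), and in DM11234P2 CuCl2 replicate 2 was low (0.18, with 0.50 to 0.53 in the others, 0.9241). In DM09736P1 CuO replicate 2 was low (-0.08, with 0.32 to 0.35 in the others, 0.9319). In DM11588P2 blank replicate 3 was high (-0.12, with -0.65 to -0.62 in the others, 0.9364), and in DM08448P1 blank replicate 2 was low (-0.77, with -0.41 to -0.35 in the others, 0.8682). The averages over the 112 probes held no such pool in any of the 3 groups.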

How the results depend on the processing

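The rule gave 112 probes, against 204 from cy5 arrays alone, 61 from cy3 arrays alone, 176 with limits of 2-fold on a natural log scale, 10 with CuO minus blank below 0.5, and 43 with CuCl2 minus CuO of at least 0.5 as well. It ranged from 60 to 221 over the arrays left out. Which probes they were changed too: 28 of the 112 remained after quantile normalization (78 probes), 59 after scaling to one median absolute deviation (98), 84 with group medians (124) and 106 after centring each array (116). Over the same 112 probes, the median CuCl2 minus CuO under these settings ran from 0.17 (cy3 arrays) to 0.61. It was 0.30 after quantile normalization and 0.32 after scaling. The rule put this difference above 0 in all of the 112 and the settings reuse the same arrays, so its sign is no test. For probes chosen anew on part of the arrays, the median in the arrays left out ranged from -0.06 to 0.55. Calls among the 112 ranged, over arrays left out, from 76 to 111 for CuCl2 against blank, 49 to 70 for CuO against blank and 14 to 22 for the dye term. Over the other settings the first count lay between 71 (quantile normalization, 15.0% of all probes) and 107 (array weights, 24.5%). The count for CuO against blank lay between 44 (no dye term, 9.58% of all probes) and 80 (only the groups compared, 17.6%). CuCl2 against CuO gave 0 calls in all 20 other settings of the fit, and the interaction gave 0 wherever it was fitted. No pairing of the pools by replicate number was seen. Deviations of same-numbered pools correlated from -0.36 to 0.32, 4 of 12 above 0.1, and 1 pool correlated best with its own number. Such values cannot exclude a pairing. With the replicate block in place of the dye term, 100 of the 112 were called for CuCl2 against blank (20.8% of all probes). The same fit called 66 for CuO against blank (17.1%) and 0 for CuCl2 against CuO. For the 31 named probes CuCl2 minus blank kept its direction in 620 refits, with 52 losing and 21 gaining the call. The rule or its limits chose these probes and the refits reuse the same arrays, so this direction is no test either. With 4 pools a group and a shared spread, the 95% intervals leave the side of the limit unresolved for most of the 112. The log base, the direction of the ratio and the selection of the deposited rows are not stated in the sources used here. The cause of these shifts was not tested.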
